A study of Mus musculus with 4 samples.

Results

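The genes described here are Cd8a and the 4 genes that flank it on mouse chromosome 6, Cd8b1, Gm44175, Krcc1 and Rmnd5a, followed across the vascular, stromal and immune cells of the spinal cord. They were picked by symbol, 5 of the 32285 genes in the count matrices, because Cd8a and Gm44175 had been seen to differ between the libraries, so their levels are given as descriptions with no test. Cd8a and Cd8b1 encode the chains of the CD8 co-receptor, which binds major histocompatibility complex (MHC) class I molecules and steadies the contact between a cytotoxic T cell and the cell it inspects. The co-receptor is made either of a pair of Cd8a chains or of a Cd8a and a Cd8b1 chain, and Cd8b1 needs Cd8a to reach the cell surface. Conventional T cells carry the mixed form, and endothelium is not among the cell types for which CD8 is usually used as a marker.

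Single-cell RNA was measured in 4 libraries of dissociated mouse spinal cord with the 10x Genomics 3′ assay, which counts unique molecular identifiers (UMIs), each standing for 1 captured RNA molecule. The first library came from mice homozygous for P301S with CD8 knocked out at 30 weeks of age (labelled CD8 KO, and called the KO-labelled library below). The 3 CD8 wild-type libraries came from P301S homozygous mice at 33 weeks, P301S homozygous mice at 30 weeks and P301S-negative mice at 30 weeks. P301S is a mutation of the microtubule-associated protein tau that is carried by transgenic models of tauopathy. The promoter of the transgene and the nature of the CD8 allele are not given in the sources used here. The cords of 2 perfused mice were pooled in 1 tube per group and myelin was removed with beads, so each group is 1 library. No difference below has a replicate check, and every interval is a 95% counting interval (exact Poisson for levels, Clopper-Pearson for shares, conditional binomial for ratios) that leaves out the variation between mice.

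The libraries held 43531426 UMIs in the KO-labelled library, 36331214 in the 33-week P301S library, 42401255 in the 30-week P301S library and 42823896 in the P301S-negative library. After filtering, 5066, 4788, 4692 and 5640 cells remained in the same order, and cells were called X-like by marker lists that held none of the 5 genes. The labels describe leukocytes and spinal cord cells, and both were found. All 10 capillary markers, all 10 pericyte markers and all 12 T cell markers were detected in at least 10% of the cells of their class in every library. Arterial-like cells had 9 of 12 markers so detected in every library, and venous-like cells 9 or 10 of 11. Smooth muscle-like cells had 9 or 10 of 10, fibroblast-like cells 9 to 11 of 11 and Schwann-like cells 10 or 11 of 12. Clusters with markers of more than 1 lineage were set aside, holding 499, 302, 240 and 527 cells. Between 19 and 25 cell barcodes of a library were also present in another library. The capillary-like cells of the P301S-negative library stand apart: 290 of the 292 cells of sub-cluster 13 and 260 of the 326 cells of sub-cluster 10 came from it, as did 120 of the 121 cells of arterial sub-cluster 17. The sexes differed too. Cells with Xist and no Y-linked UMI numbered 4 in the KO-labelled library, 1686 in the 33-week P301S library, 3723 in the 30-week P301S library and 2043 in the P301S-negative library. Cells with only Y-linked UMIs numbered 3089, 1305, 0 and 1568.

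The order of the genes along the chromosome matters for what follows. In mm10 with the GENCODE M21 annotation, Cd8a (ENSMUSG00000053977) lies at chr6:71373427-71379173 on the plus strand, and the long intergenic RNA gene Gm44175 (ENSMUSG00000108132) lies 12.6 kb before its start at chr6:71354351-71360829 on the minus strand. Cd8b1 (ENSMUSG00000053044) at chr6:71322788-71337494 and Krcc1 (ENSMUSG00000053012), which encodes a lysine-rich coiled-coil protein, at chr6:71271677-71285319 lie 35.9 kb and 88.1 kb before Cd8a on the plus strand. Rmnd5a (ENSMUSG00000002222), a subunit of the CTLH ubiquitin ligase complex, lies 9.46 kb beyond the end of Cd8a at chr6:71388634-71440637 on the minus strand. Gm44174 is annotated over Gm44175 on the opposite strand and had 0 UMIs in all 4 libraries, and whether the counting used strand is not given in the sources used here.

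The promoters of 3 of the 5 genes were available from RefSeq (build GRCm38.p6, the assembly of mm10). Each runs from 250 bases before the start that RefSeq gives the gene to 50 bases after it. For Krcc1 that start lies downstream of the GENCODE start given above, and the printed region lies inside the gene as GENCODE draws it. They are shown as a description, and no promoter was available for the neighbours Cd8b1 and Gm44175. Whether this sequence bears on where each gene was detected was not tested. Capitals mark CG dinucleotides, and each sequence is read 5′ to 3′ on the gene's own strand. The regions are chr6:71373177-71373476 on the plus strand for Cd8a, chr6:71271769-71272068 on the plus strand for Krcc1 and chr6:71440588-71440887 on the minus strand for Rmnd5a.
Cd8a: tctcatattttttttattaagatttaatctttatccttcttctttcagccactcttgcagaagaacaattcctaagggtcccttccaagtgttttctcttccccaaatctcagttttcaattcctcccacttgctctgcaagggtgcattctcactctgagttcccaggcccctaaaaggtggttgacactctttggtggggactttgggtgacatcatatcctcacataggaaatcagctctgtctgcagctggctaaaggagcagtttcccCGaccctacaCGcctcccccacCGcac
Krcc1: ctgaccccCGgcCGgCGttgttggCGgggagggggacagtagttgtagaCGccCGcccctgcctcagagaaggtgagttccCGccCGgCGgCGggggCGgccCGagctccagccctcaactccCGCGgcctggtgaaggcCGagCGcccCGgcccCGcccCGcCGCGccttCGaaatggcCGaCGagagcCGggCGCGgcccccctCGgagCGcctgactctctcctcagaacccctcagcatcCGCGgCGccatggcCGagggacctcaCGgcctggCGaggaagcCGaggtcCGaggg
Rmnd5a: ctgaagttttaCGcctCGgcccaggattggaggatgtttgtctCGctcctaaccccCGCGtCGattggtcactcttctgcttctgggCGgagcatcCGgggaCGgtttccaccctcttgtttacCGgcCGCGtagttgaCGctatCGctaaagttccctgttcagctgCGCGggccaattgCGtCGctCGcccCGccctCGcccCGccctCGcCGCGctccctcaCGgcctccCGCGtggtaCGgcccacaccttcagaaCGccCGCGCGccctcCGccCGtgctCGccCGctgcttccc
The Cd8a promoter held 3 CG dinucleotides and 46.7% G or C, against 37 CG and 75.0% in Krcc1 and 37 CG and 66.7% in Rmnd5a. Among the 32851 promoters of that length in the table the median was 7 CG, 31.4% held at most as many as Cd8a and 94.4% held fewer than Krcc1 or Rmnd5a. Searched on both strands, the RUNX motif TGTGGT was in none of the 3 promoters and in 16.8% of all promoters. The ETS motif CCGGAA, which itself contains a CG, was in none of the 3 and in 14.9% of all. The E-box CAGCTG was found 1 time each in Cd8a and Rmnd5a, not in Krcc1, and in 16.3% of all. These motifs share no position in the printed sequences, and a match or its lack describes the letters only.

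Cd8a in T cells goes with the knockout label, and Cd8a over all cells goes against it. In T-cell-like cells, 1 Cd8a UMI was counted among 48 cells of the KO-labelled library (5.30 UMIs per 1000000 UMIs of the class, CPM, interval 0.134 to 29.5), against 61 UMIs in the 33-week P301S library (310.7 CPM), 55 in the 30-week P301S library (349.9 CPM) and 37 in the P301S-negative library (329.9 CPM). The knockout-labelled library was 58.6-fold lower than the 33-week P301S library (interval 10.1 to 2352), 66.0-fold lower than the 30-week P301S library (11.4 to 2653) and 62.2-fold lower than the P301S-negative library (10.5 to 2523). Summed over all cells kept after filtering the opposite was seen, with 1350 Cd8a UMIs in the KO-labelled library against 72, 84 and 58 in the 33-week P301S, 30-week P301S and P301S-negative libraries. Reads from this assay come from the 3′ end of the RNA, and the part of Cd8a that the allele removes is not given in the sources used here. A 3′ tag outside that part would check nothing, so every direction below is drawn for a library labelled as a knockout.

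Of the 1350 Cd8a UMIs in the KO-labelled library, 68.2% lay in the 3 endothelial classes, 23.3% in set-aside clusters that combined vascular lineages, 2.67% in pericyte-, smooth muscle-, fibroblast- and Schwann-like cells, 2.59% in a neuron-like cluster that was set aside, 1.93% in microglia-like cells and 0.0741% in T-cell-like cells. In the CD8 WT libraries most Cd8a UMIs lay in T-cell-like cells, at 84.7% in the 33-week P301S, 65.5% in the 30-week P301S and 63.8% in the P301S-negative library.

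In capillary endothelium, the exchange vessels that make up the blood-spinal cord barrier, Cd8a was present in the KO-labelled library and undetected in the others. It had 393 UMIs in 757 capillary-like cells there, which is 106.6 CPM (interval 96.3 to 118), against 0 UMIs in 640 cells of the 33-week P301S library, 0 in 619 cells of the 30-week P301S library and 0 in 1166 cells of the P301S-negative library. At a floor of 3 counts per library, those zeros allow up to 1.18, 1.02 and 0.404 CPM. Cd8a was thus at least 90.0-fold, at least 104.9-fold and at least 263.8-fold higher in the KO-labelled library than in the 33-week P301S, 30-week P301S and P301S-negative libraries. Such bounds take the counted level in the KO-labelled library as it stands and leave out its counting error. Arterial-like cells, which line the vessels that bring blood in, had 271 UMIs in 279 cells of the KO-labelled library (120.5 CPM, 107 to 136) and 0 UMIs in each of the 3 others, with at least 63.4-fold, 73.8-fold and 143.0-fold higher levels in the same order. Venous-like cells, which line the vessels that leukocytes usually leave through, had 257 UMIs in 177 cells of the KO-labelled library (146.1 CPM, 129 to 165) and again 0 in each of the 3 others, at least 50.4-fold, 67.5-fold and 105.4-fold higher. Over the 3 endothelial classes together the level was 119.7 CPM in the KO-labelled library, which equals 38.5% (29.7 to 50.8), 34.2% (26.1 to 45.8) and 36.3% (26.1 to 51.9) of the Cd8a level of T-cell-like cells in the 33-week P301S, 30-week P301S and P301S-negative libraries. The T-cell-like class was not split into CD8 and other T cells, so these are not shares of the level in CD8 T cells.

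A Cd8a UMI was found in 34.2% of capillary-like cells (30.8 to 37.7), 52.0% of arterial-like cells (45.9 to 58.0) and 59.3% of venous-like cells (51.7 to 66.6) of the KO-labelled library. Microglia-like cells, which should lack the gene, had a UMI in 1.1% of 2331 cells of that library. Its microglia-like cells were deeper, at a median of 9443 UMIs per cell against 4157, 6210 and 6482 in capillary-, arterial- and venous-like cells. Thinned to 1000 UMIs per cell, which left out 44, 7 and 2 shallower cells, the endothelial shares were 11.4%, 11.0% and 18.9% for capillary-, arterial- and venous-like cells. Of the capillary-like cells with Cd8a, 167 had 1 UMI, 64 had 2 and 28 had 3 or more, and the highest counts in a cell were 5 in capillary-, 7 in arterial- and 9 in venous-like cells.

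**Figure D1:**
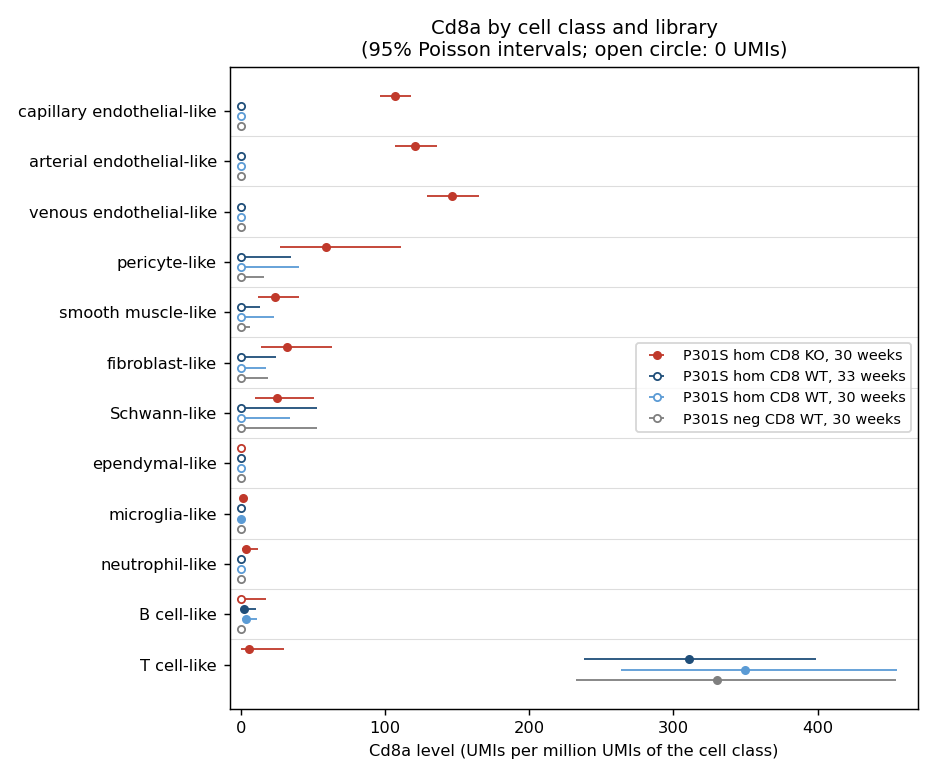
Cd8a level (horizontal axis, CPM) in each named cell class and library, with 95% Poisson intervals and open circles for 0 UMIs. The KO-labelled library has 106.6, 120.5 and 146.1 CPM in capillary-, arterial- and venous-like cells where the 3 others have 0, and 5.30 CPM in T-cell-like cells where the others have 310.7 to 349.9 CPM.

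The share of positive cells went with the depth of the cell, while the level showed no such increase. In capillary-like cells of the KO-labelled library the share with a Cd8a UMI was 13.8% at 500 to under 2000 UMIs per cell, 31.6% from 2000 to under 5000, 41.3% from 5000 to under 10000 and 68.1% at 10000 or more. The Cd8a level in the same bins was 145, 120, 91.4 and 101 CPM. Venous-like cells had shares of 21.4%, 43.4%, 60.0% and 80.0% and levels of 132, 170, 185 and 133 CPM. Arterial-like cells had shares of 23.5%, 44.0%, 45.7% and 72.1%, while their level ran the other way at 241, 180, 112 and 109 CPM, the first of these on 5 UMIs.

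**Figure D2:**
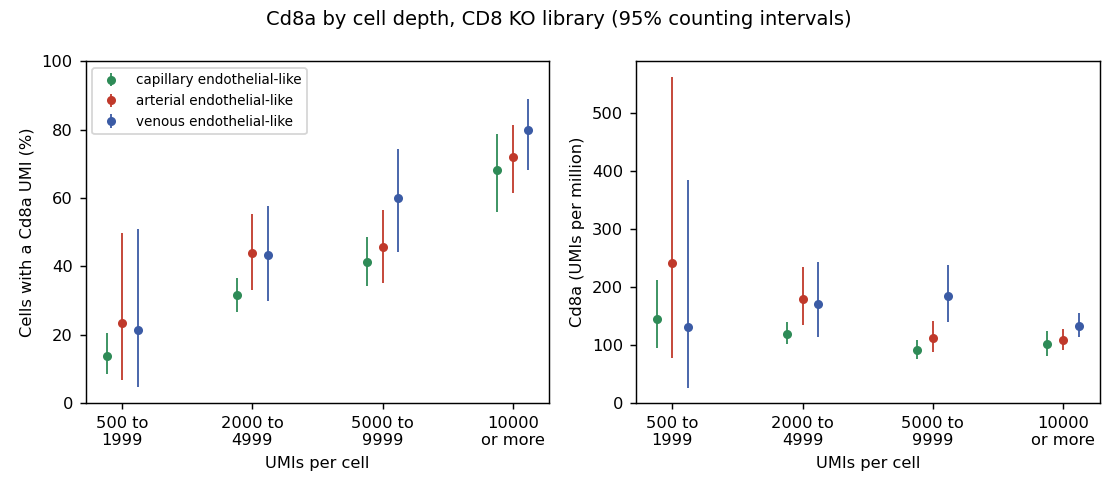
Share of cells with a Cd8a UMI (left, percent) and Cd8a level (right, CPM) by UMIs per cell in the 3 endothelial classes of the KO-labelled library, with 95% counting intervals. The share in capillary-like cells goes up with depth to 68.1%, while the level lies between 91.4 and 145 CPM.

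Within the KO-labelled library the 3 endothelial classes were close to each other. Venous-like cells had 1.37 times the capillary level (1.17 to 1.61) and 1.21 times the arterial level (1.02 to 1.44), and arterial-like cells had 1.13 times the capillary level (0.965 to 1.32), which is within counting error. All 15 endothelial sub-clusters with at least 10 cells in that library had Cd8a, between 91.2 and 250 CPM with a median of 122 CPM. The ranges were 91.2 to 135 CPM over the 8 capillary, 103 to 250 CPM over the 4 arterial and 130 to 201 CPM over the 3 venous sub-clusters. In the CD8 WT libraries all 42 values for an endothelial sub-cluster in a library were 0.

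**Figure D3:**
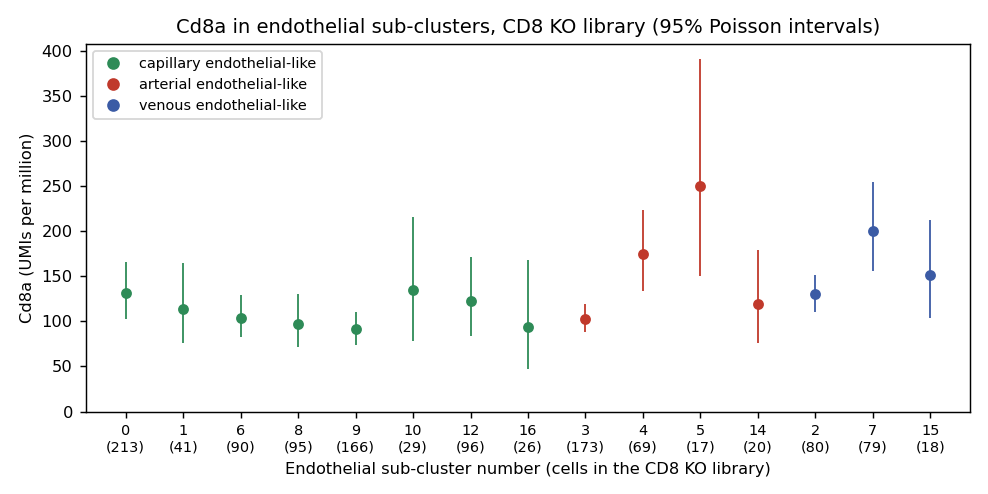
Cd8a level (vertical axis, CPM, 95% Poisson intervals) in each endothelial sub-cluster of the KO-labelled library, with its cell number in brackets. Every one of the 15 sub-clusters lies between 91.2 and 250 CPM.

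The 12 T cell markers were near 0 in the endothelial cells that carried Cd8a, while the kinase gene Zap70, which is not among them, was read in capillary-like cells of every library and is described further on. The markers, which include the CD3 chains and the receptor constant regions, summed to 9, 4 and 1 UMIs in capillary-, arterial- and venous-like cells of the KO-labelled library (2.44, 1.78 and 0.569 CPM), against 13468 CPM in its T-cell-like cells. The 3 CD3 chains had 0, 1 and 0 UMIs. A T cell marker was seen in 8 of 509 endothelial cells with Cd8a (1.57%) and in 5 of 704 without it (0.710%), and Ptprc, the pan-leukocyte gene, in 6 of the 509. Leaving out cells with a UMI of an immune marker gave 107.4 CPM in capillary-like cells.

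The sexes of the libraries differ, so Cd8a was also read in male endothelial cells alone. The KO-labelled library had 678 Cd8a UMIs in 677 such cells (120 CPM), against 0 in 328 male cells of the 33-week P301S library and 0 in 467 male cells of the P301S-negative library, where the floor of 3 counts is 1.34 and 0.654 CPM. The 30-week P301S library had no male-called endothelial cells, and its 816 female ones held 0 Cd8a UMIs.

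Outside endothelium, Cd8a was lower and rested on few UMIs. Pericyte-like cells, the contractile cells around capillaries, had 9 UMIs in 64 cells of the KO-labelled library (58.6 CPM, 26.8 to 111) and smooth muscle-like cells had 12 in 81 cells (23.2 CPM, 12 to 40.5). Fibroblast-like cells had 8 UMIs in 29 cells (31.9 CPM, 13.8 to 62.9). Schwann-like cells, glia of the nerve roots, had 7 in 92 cells (24.7 CPM, 9.93 to 50.9). All 4 classes had 0 Cd8a UMIs in the 33-week P301S, 30-week P301S and P301S-negative libraries.

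Few cells limit what those zeros show, and the bounds here leave out the counting error of the KO-labelled library. A low bound, such as that of smooth muscle-like cells against the 30-week P301S library, does not exclude equal levels. Levels in the KO-labelled library were at least 2.09-fold, 1.79-fold and 4.51-fold higher in pericyte-like cells than in the 33-week P301S, 30-week P301S and P301S-negative libraries, at least 2.16-fold, 1.26-fold and 4.88-fold higher in smooth muscle-like cells, and at least 1.60-fold, 2.29-fold and 2.11-fold higher in fibroblast-like cells. In Schwann-like cells a count of 0 allows 42.9, 27.6 and 42.6 CPM, above the 24.7 CPM of the KO-labelled library, so a difference was not detectable at this depth.

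The endothelial level in the KO-labelled library was 2.04 times the pericyte level (1.07 to 4.48), 5.16 times the smooth muscle level (2.94 to 10.0), 3.75 times the fibroblast level (1.89 to 8.71) and 4.85 times the Schwann level (2.34 to 12.1). The 6 pairs among those 4 classes all had intervals that hold 1. Pericyte over smooth muscle was 2.53 (0.941 to 6.54), pericyte over Schwann 2.37 (0.787 to 7.5) and pericyte over fibroblast 1.84 (0.629 to 5.47). Fibroblast over smooth muscle was 1.38 (0.488 to 3.66), fibroblast over Schwann 1.29 (0.410 to 4.19) and Schwann over smooth muscle 1.06 (0.355 to 2.93). Cldn5, the tight-junction gene that defines brain and cord endothelium, was read beside these values. Endothelial-like cells had 42.8 Cd8a UMIs per 1000 Cldn5 UMIs. The neuron-like cluster that was set aside had 175 cells in the KO-labelled library against 1, 0 and 1 in the 33-week P301S, 30-week P301S and P301S-negative libraries. In the KO-labelled library it had 35 Cd8a UMIs (28.7 CPM) at 51.3 per 1000 Cldn5 UMIs. Pericyte-like cells had 9 Cd8a and 8 Cldn5 UMIs (1125 per 1000) and smooth muscle-like cells 12 and 39 (308 per 1000). Fibroblast-like cells had 8 and 0, Schwann-like cells 7 and 3 (2333 per 1000) and microglia-like cells 26 and 70 (371 per 1000). Where Cldn5 was counted, the ratio in these classes was above that of endothelial-like cells. Against the summed UMIs of Cldn5, Pecam1, Cdh5 and Flt1, Cd8a stood at 16.7 per 1000 in endothelial-like cells and at 15.9 in microglia-like cells. Cldn5 made up 70 of the 1632 summed UMIs in microglia-like cells and 21524 of 55261 in endothelial-like cells, so the sums differ in make-up. Cd8a stood at 196 per 1000 in pericyte-like, 98.4 in smooth muscle-like, 889 in fibroblast-like and 778 in Schwann-like cells. The Cd8a-positive cells with no UMI of those 4 genes numbered 7 of 9 pericyte-like, 5 of 8 smooth muscle-like, 5 of 6 fibroblast-like, 4 of 6 Schwann-like and 10 of 26 microglia-like cells. The part of free RNA in these few counts was not tested.

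Other classes of the KO-labelled library were near 0. Microglia-like cells had 26 Cd8a UMIs in 2331 cells (1.12 CPM), against 0, 1 and 0 in the 33-week P301S, 30-week P301S and P301S-negative libraries, and the endothelial level was 107 times theirs (72.4 to 164). Ependymal-like cells, which line the central canal, had 0 UMIs in 124 cells of the KO-labelled library, so the endothelial level was at least 64.1-fold higher. No Cd8a UMI was counted there in astrocyte-, oligodendrocyte precursor-, border macrophage-, B- or natural killer-like cells either, though these classes are small.

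Cd8b1, the partner chain, was not part of the endothelial pattern. It had 1 UMI in capillary-like cells of the KO-labelled library (0.271 CPM) and 0 in its arterial-, venous-, pericyte-, smooth muscle-, fibroblast- and Schwann-like cells. The 33-week and 30-week P301S libraries had 0 in all 7 classes and the P301S-negative library had 1 UMI each in capillary- and arterial-like cells. Both sides are at or under the floor of 3 counts, so no fold is given.

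In T-cell-like cells Cd8b1 was lower in the KO-labelled library, and the fold depended on 1 cluster. It had 48 UMIs there (255 CPM, 188 to 337), against 114 in the 33-week P301S library (581 CPM), 80 in the 30-week P301S library (509 CPM) and 69 in the P301S-negative library (615 CPM), which is 2.28-fold, 2.0-fold and 2.42-fold lower in that order. One cluster was led by Trbc2, Trbc1, Ly6d, Lat, Tcf7 and Dntt, the last a DNA polymerase with which lymphoid precursors diversify their receptors. It had 17 of its 19 cells in the KO-labelled library and held 45 of the 48 UMIs (434 CPM, in 12 of the 17 cells) beside the single Cd8a UMI. Without that cluster, Cd8b1 had 3 UMIs in the KO-labelled library (35.3 CPM) against 114 (595 CPM), 74 (507 CPM) and 69 (615 CPM), or 16.8-fold (5.62 to 82.9), 14.4-fold (4.73 to 71.2) and 17.4-fold (5.72 to 86.5) lower. Cd8a then had 0 UMIs in the KO-labelled library and was at least 9.01-fold, 9.71-fold and 9.34-fold lower than in the 33-week P301S, 30-week P301S and P301S-negative libraries. Among the genes measured with at least 20 UMIs in T-cell-like cells, 5.98%, 5.49% and 3.97% were at least 2-fold lower and 16%, 17.6% and 22.9% at least 2-fold higher than in those 3 libraries.

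Gm44175, the RNA gene upstream of Cd8a, was likewise high in the endothelium of the KO-labelled library, at a lower level than Cd8a. In capillary-like cells it had 80 UMIs in the KO-labelled library (21.7 CPM, 17.2 to 27.0, in 9.11% of cells), against 2 UMIs in the 33-week P301S library (0.790 CPM), 1 in the 30-week P301S library (0.339 CPM) and 2 in the P301S-negative library (0.269 CPM). The KO-labelled library was 27.5-fold (7.36 to 231), 64.1-fold (11.2 to 2562) and 80.5-fold (21.6 to 676) higher in that order. Arterial-like cells had 44 UMIs in the KO-labelled library (19.6 CPM) against 0, 0 and 2 in the 3 others, at least 10.3-fold and 12-fold higher than the first 2 and 34.8-fold (9.09 to 297) higher than the P301S-negative library. Venous-like cells had 58 (33.0 CPM) against 0 in each, at least 11.4-fold, 15.2-fold and 23.8-fold higher. Venous-like cells had 1.52 times the capillary level (1.06 to 2.16) and 1.69 times the arterial level (1.12 to 2.55).

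In pericyte-, smooth muscle-, fibroblast- and Schwann-like cells Gm44175 had 1, 1, 1 and 2 UMIs in the KO-labelled library and 0 in each of the 3 others, too few for a fold. In T-cell-like cells it had 1 UMI in the KO-labelled library and 0, 1 and 0 in the 33-week P301S, 30-week P301S and P301S-negative libraries, so the T cells that carried Cd8a in the CD8 WT libraries had almost no Gm44175 UMIs.

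Summed by endothelial class, Gm44175 and Cd8a had a similar ratio. It was 20.4, 16.2 and 22.6 Gm44175 UMIs per 100 Cd8a UMIs in capillary-, arterial- and venous-like cells of the KO-labelled library. The ratio was not steady over sub-clusters. Gm44175 ran from 4.06 to 76.9 CPM over the capillary sub-clusters, where Cd8a ran from 91.2 to 135 CPM. The Gm44175 range was 11.3 to 31.1 CPM over the arterial and 25.0 to 87.1 CPM over the venous sub-clusters. The smallest sub-clusters held 26, 17 and 18 cells. Within a class, the 2 RNAs were also compared by cell. The Gm44175 level in capillary-like cells with a Cd8a UMI was 1.04 times that in cells without one (22.2 and 21.3 CPM, interval of the ratio 0.654 to 1.66), and in arterial-like cells 1.14 times (20.5 and 18.0 CPM, 0.589 to 2.28). In venous-like cells it was 6.17 times (41.8 and 6.78 CPM, 2.0 to 30.8), with 3 Gm44175 UMIs in the cells without Cd8a. Both RNAs were seen together in 34 capillary-, 20 arterial- and 33 venous-like cells.

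Gm44175 was also the gene whose profile lay closest to that of Cd8a. Over 58 sums of a class in a library and 14261 genes, its correlation with Cd8a was r = 0.79, followed by Calca at 0.67, Ctsw at 0.59, Il2rb at 0.57 and Xcl1 at 0.56, with Cd8b1 at 0.56. Without T-cell-like cells, over 55 sums and 14219 genes, it was r = 0.91, followed by Calca at 0.57, Prph at 0.55, Mapk11 at 0.48 and Gm11827 at 0.41. The sums share 4 libraries and their depths, and Cd8a and Gm44175 were picked for differing between those libraries. These values are therefore a description. Krcc1 and Rmnd5a had r = 0.03 and 0.09 over the 58 sums.

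Cd8a and Gm44175, picked because they had been seen to differ between these libraries, were the genes furthest above all 3 CD8 WT libraries in capillary-like cells. The rank is by the smallest of the 3 log2 ratios with 5 CPM added to each side. That smallest log2 ratio was 4.48 for Cd8a and 2.21 for Gm44175. Calca, which encodes calcitonin gene-related peptide, followed at 1.30 with 27 UMIs in the KO-labelled library (7.32 CPM) and 0 in each of the others. Nefl, the neurofilament light chain, stood at 0.80 with 24 UMIs in the KO-labelled library (6.51 CPM) against 3, 0 and 12 UMIs (1.18, 0 and 1.62 CPM). Both are neuronal genes, and the neuron-like cluster of 175 cells stood in the same library. Its part in these values was not tested. Fgfbp3 came next at 0.61. At the other end, S100a9 had -1.68 as the ratio closest to 0 and was followed by S100a8, Camp, Ngp and Hba-a1, genes of neutrophils and red cells. Neutrophil-like cells numbered 211 in the KO-labelled library against 587, 615 and 614 in the 33-week P301S, 30-week P301S and P301S-negative libraries. Of the 5 genes of the locus, 4 had enough UMIs in capillary-like cells for a ratio to the 30-week P301S library, and Cd8a and Gm44175 were at least 2-fold higher. Over all genes measured there 0.965% were at least 2-fold higher than in the 30-week P301S library, 1.19% than in the 33-week P301S library and 1.1% than in the P301S-negative library. In that order the shares were 1.12%, 1.4% and 1.22% in arterial-like and 1.47%, 2.42% and 1.27% in venous-like cells. The genes of the locus were chosen from this contrast, so nothing is read from their count or their rank.

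**Figure D4:**
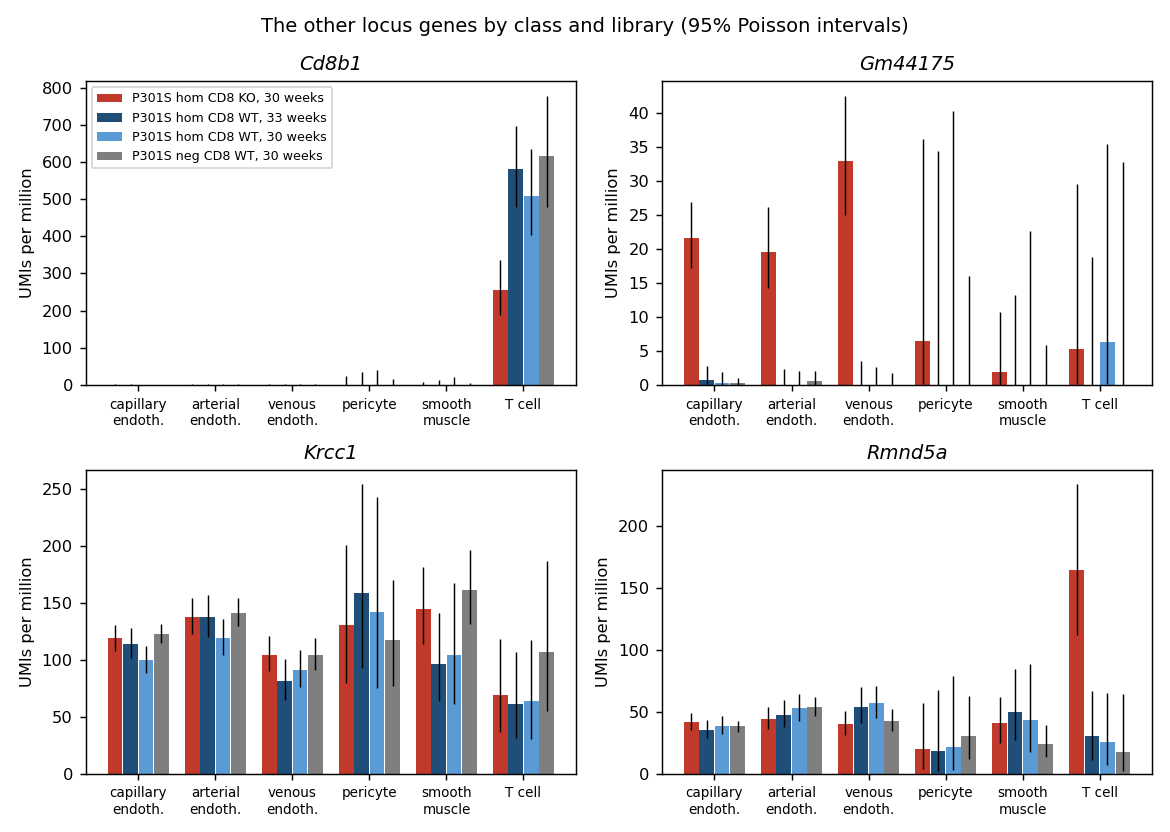
Levels (CPM, 95% Poisson intervals) of Gm44175, Cd8b1, Krcc1 and Rmnd5a by class and library. Gm44175 has 21.7, 19.6 and 33.0 CPM in the endothelial classes of the KO-labelled library and at most 0.790 CPM in those classes of the others, Cd8b1 is seen in T-cell-like cells, and Krcc1 and Rmnd5a are seen in every class drawn.

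Krcc1 and Rmnd5a, the protein-coding genes on either side, were read in every vascular and stromal class of every library. Krcc1 had 119 CPM (438 UMIs) in capillary-like cells of the KO-labelled library, against 114 CPM in the 33-week P301S library, 99.9 CPM in the 30-week P301S library and 123 CPM in the P301S-negative library, which is 1.04 times (0.896 to 1.21), 1.19 times (1.02 to 1.38) and 0.966 times (0.860 to 1.08) in that order. The KO-labelled library thus lay inside the range of the other 3. Krcc1 had 138 CPM in arterial-like cells of the KO-labelled library against 137, 119 and 142 CPM, and 105 CPM in venous-like cells against 81.1, 90.9 and 104 CPM, and every interval of those ratios held 1. Among the 7 vascular and stromal classes the only other ratio whose interval left out 1 was in fibroblast-like cells, with 32 UMIs (128 CPM) in the KO-labelled library against 12 (55.8 CPM) in the 30-week P301S library, 2.29 times (1.15 to 4.88), and there the 33-week P301S and P301S-negative libraries had 99.7 and 121 CPM. Pericyte-, smooth muscle- and Schwann-like cells ranged from 106 to 145 CPM in the KO-labelled library and from 96.7 to 162 CPM in the others.

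Rmnd5a had 41.5 CPM (153 UMIs) in capillary-like cells of the KO-labelled library, against 35.5, 38.6 and 38.1 CPM in the 33-week P301S, 30-week P301S and P301S-negative libraries. Arterial-like cells had 44.0 CPM against 47.5, 52.8 and 53.6 CPM. Venous-like cells had 40.4 CPM against 54.1, 57 and 42.5 CPM, and the ratio to the 30-week P301S library was 0.708 (0.507 to 0.988), while the other 8 ratios of Rmnd5a in the endothelial classes had intervals that hold 1. Pericyte-, smooth muscle-, fibroblast- and Schwann-like cells had 19.5, 40.6, 27.9 and 24.7 CPM in the KO-labelled library, on 3 to 21 UMIs. Of these only smooth muscle-like cells had at least 20 UMIs in each pair of libraries, and their 3 ratios had intervals that hold 1. In T-cell-like cells Rmnd5a stood higher in the KO-labelled library, with 31 UMIs (164 CPM, 112 to 233) against 6 (30.6 CPM), 4 (25.4 CPM) and 2 (17.8 CPM), or 5.38 times (2.21 to 15.8), 6.46 times (2.28 to 25.2) and 9.22 times (2.35 to 79.5). The Dntt-led cluster held 26 of those 31 UMIs, and without it the KO-labelled library had 5 UMIs (58.9 CPM) and ratios of 1.88 (0.454 to 7.39), 2.15 (0.462 to 10.8) and 3.30 (0.541 to 34.7).

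The rest of the chromosome around Cd8a was read over 1 Mb on each side, a window with 94 annotated genes, 65 of them in the matrices. In the 3 endothelial classes together, 20 genes other than the 5 had at least 20 UMIs, and 0 of them were at least 2-fold apart from all 3 CD8 WT libraries in 1 direction. Their log2 ratios to the 30-week P301S library ran from -2.22 to 0.56 with a median of 0.05. The lowest was Igkc, the immunoglobulin kappa constant gene of B cells, with 8.97 CPM in the KO-labelled library against 10.9, 41.8 and 15.7 CPM in the 33-week P301S, 30-week P301S and P301S-negative libraries. In the pericyte-, smooth muscle-, fibroblast- and Schwann-like cells together, 14 such genes were measured and 0 were 2-fold apart from all 3. In microglia-like cells 20 were measured and 1 was, again Igkc, with 4.18 CPM in the KO-labelled library against 10.4, 1360 and 12.6 CPM, a log2 ratio of -8.34 to the 30-week P301S library. The share of all genes that lay 2-fold apart from all 3 libraries was not computed for these cells. In capillary-like cells, 0.965% to 1.19% of all genes were at least 2-fold higher than in a single CD8 WT library. At such shares a count of 0 among 14 or 20 genes would be usual, so nothing is read from these counts.

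**Figure D5:**
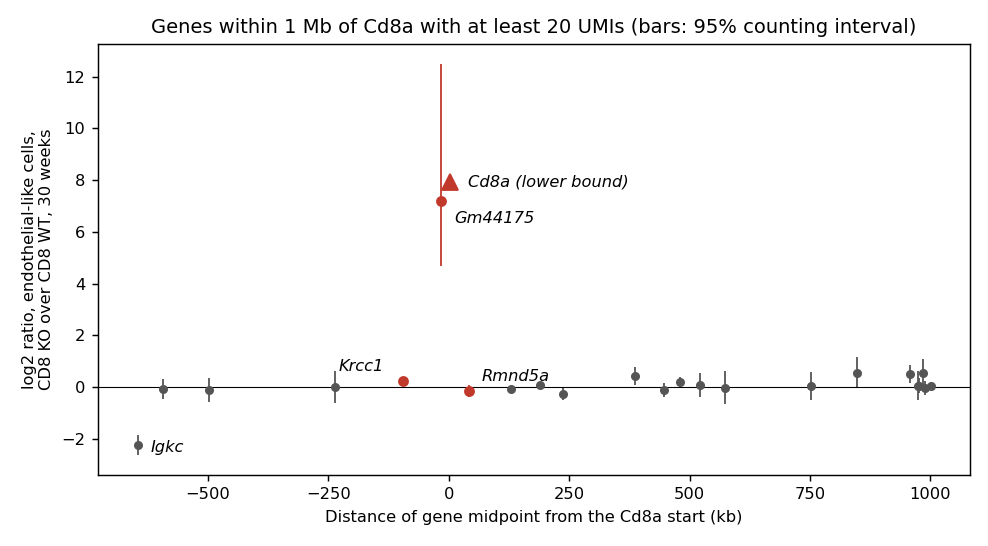
Log2 ratio of the KO-labelled library over the 30-week P301S CD8 WT library in the 3 endothelial classes together (vertical axis, 95% counting intervals) for each measured gene within 1 Mb of Cd8a, by distance from the Cd8a start (horizontal axis, kb). Cd8a and Gm44175 stand above the others, which lie between -2.22 and 0.56.

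Genes tied to CD8 function or to its expression in T cells were read in capillary-like cells from 4 lists. Of 19 T cell receptor and co-receptor genes, 1 reached 20 UMIs, the kinase gene Zap70, with 36.6 CPM in the KO-labelled library against 22.1, 27.4 and 22.6 CPM in the 33-week P301S, 30-week P301S and P301S-negative libraries. Of the MHC class I genes, which encode the ligand of CD8 and its loading machinery, 10 were measured and 0 were 2-fold apart from the 30-week P301S library, with a median log2 ratio of -0.18 against 0.0018 over all genes. H2-D1 and H2-K1, classical class I chains, had 1418 and 1273 CPM in the KO-labelled library. H2-D1 had 1374, 1562 and 2759 CPM and H2-K1 had 1179, 1442 and 3202 CPM in the 33-week P301S, 30-week P301S and P301S-negative libraries. B2m, the shared light chain, had 938 CPM in the KO-labelled library against 871, 1069 and 2018 CPM in that order. The P301S-negative library was highest for each of the 10 class I genes. H2-Q7 had 78.1 CPM in the KO-labelled library against 78.6, 111 and 487 CPM in the same order. H2-Q6 had 41.5 CPM against 35.1, 63.3 and 244 CPM, and both were named after their values were seen. The P301S-negative library is the one whose capillary-like cells include sub-clusters of its own.

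Of 14 transcription and chromatin regulators known to act on Cd8a in T cells or in the same lineage, 10 were measured in capillary-like cells, 1 was at least 2-fold higher and 1 at least 2-fold lower than in the 30-week P301S library, where 1.09% of all genes were that much lower. The median log2 ratio was -0.02. The higher one was Runx1, with 22 UMIs in the KO-labelled library and 8 in the 30-week P301S library, 2.20 times with an interval that holds 1 (0.944 to 5.72). Its level was 5.97 CPM in the KO-labelled library against 5.53, 2.71 and 3.37 CPM in the 33-week P301S, 30-week P301S and P301S-negative libraries. The lower one was Satb1, with 12 and 23 UMIs, 0.418 times (0.190 to 0.875), and 3.26 CPM in the KO-labelled library against 3.95, 7.79 and 5.39 CPM in the same order. Both were named after their values were seen. Lef1, a partner of Wnt signalling that brain and cord endothelium uses, had 256 CPM in the KO-labelled library against 234, 242 and 275 CPM, and Ets1, an endothelial and lymphoid factor, had 180 CPM against 210, 174 and 248 CPM. Runx3 and Gata3 had 0 UMIs in capillary-like cells of the KO-labelled library. Of 9 cytotoxic effector genes, 1 (Ctsw) was measured and 7 were at 0 in that library.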

How the data were processed

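The authors deposited 4 matrices of unnormalised UMI counts by gene and barcode, made with Cell Ranger 6.0.1 per the file headers and aligned to mm10 per the submitters' processing notes. Each holds cell-called barcodes of 2 pooled mice. From these counts, cells with at least 500 UMIs, 200 genes and at most 15% mitochondrial UMIs were kept and doublets (6% expected) removed with the scrublet of scanpy 1.11.5 (python 3.11.15, anndata 0.12.19, scipy 1.17.1). Cells were clustered on 2000 variable genes with 30 components, 15 neighbours and Leiden resolution 1 (leidenalg 0.10.2). All genes within 1 Mb of Cd8a and mitochondrial, ribosomal protein and sex-linked genes were left out. Endothelial-like cells (20 components) and T-cell-like cells (15) were clustered again at resolution 1. Pericyte- and smooth muscle-like cells, and fibroblast- and Schwann-like cells, were clustered again with 15 components at 0.8. Clusters were named from marker lists, and a difference from the study's own names may come from that. A level is the summed UMIs of a gene per 1000000 UMIs of the class (CPM). With 1 library per group no test was possible; intervals are exact at 95%, and the floor for a count of 0 is 3 counts. Both cover counting error only. A fold given as at least sets a counted level against that floor and leaves out the counting error of the higher side. Counts and shares of genes at least 2-fold apart cover genes with at least 20 UMIs in the 2 libraries together; ratios of the 5 locus genes are given below that too, with their interval. The steps were tested on simulated data. Alternatives included other cell filters, clusterings, cell-by-cell typing, edgeR 4.0.16 TMM scaling, male cells and other thresholds. Genes named by rank are the 5 furthest above (2 of them locus genes) and the 5 furthest below all 3 CD8 WT libraries in capillary-like cells, and the most abundant members of each list. The genes and lists were chosen with earlier results of these data known. Cd8b1 and Gm44175 had no promoter in the table used.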

Additional observations from a re-analysis of the deposited data

Results flagged for a closer look

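The Cd8a difference between the KO-labelled library and the CD8 WT libraries ran in opposite directions in T-cell-like and endothelial-like cells. In T-cell-like cells the log2 ratio to the 30-week P301S library was -6.04 (1 UMI in the KO-labelled library against 55), while over the 3 endothelial classes the KO-labelled library was at least 246-fold higher (921 UMIs against 0). The same opposition held against the 33-week P301S library (at least 205-fold higher in endothelium) and the P301S-negative library (at least 525-fold). With 1 library per group the difference between the cell types was not tested. Cd8b1 was lower in T-cell-like cells and had 1 UMI in the endothelial classes of the KO-labelled library, and Gm44175 was higher in endothelium (182 UMIs against 2, 1 and 4) with 1 UMI in T-cell-like cells.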

How the results depend on the processing

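No paired analysis was possible because each group has 1 library. For 8 results, 92 values were computed under other settings; 81 stayed within the interval of the first value (or, for counts of genes, within 1.5 times), 11 moved, and no log2 ratio of at least 1 in size changed sign. Smaller ones did. Cell-by-cell marker typing gave 118 CPM and 42.8% positive for Cd8a in capillary-like cells of the KO-labelled library (106.6 CPM and 34.2% before). The positive share was 11.4% after thinning and 42.0% in male cells. The Krcc1 log2 ratio in capillary-like cells was 0.25 against the 30-week P301S library, -0.050 against the P301S-negative library, and -0.13 in male cells against the 33-week P301S library (0.058 in all cells). Its interval held 0 with called doublets kept and at the finer clustering. Rmnd5a, at 0.10, was -0.092 with cell-by-cell typing and -0.0072 at the finer clustering. The count of genes at least 2-fold higher there, 98 against the 30-week P301S library, was 120 against the 33-week P301S library, 197 against it in male cells, 406 at 1.5-fold, 21 at 3-fold, 18 with at least 50 UMIs and 8 with no UMI minimum and 5 CPM added. Gm44175 gave no ratio in male cells, as the 33-week P301S library had 0 UMIs. Without the Dntt-led cluster, an alternative added after seeing the data, the T-cell-like log2 ratios were -3.84 for Cd8b1 and 1.10 for Rmnd5a, and Cd8a was at 0 in the KO-labelled library. Depth limits Cd8a in Schwann-like cells and all folds outside endothelium, and the variation between mice was not measured. The cell classes were rebuilt from markers.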
